A study of Homo sapiens with 8 samples.

Results

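Accessible chromatin over 10 genes of histone methyltransferases was examined in U2OS cells, a human osteosarcoma line. KMT2A, KMT2B, KMT2C, KMT2D, SETD1A and SETD1B encode enzymes that methylate lysine 4 of histone H3 (H3K4), and NSD1, NSD2, NSD3 and SETD2 encode enzymes that methylate lysine 36 (H3K36). The genes were chosen by name, as 10 of 19962 protein-coding genes, and their accessible regions were all distinct peak intervals that overlapped a gene span extended by 5 kb on each side. Merging the 8 peak lists of the series gave 548046 union sites, of which 181 lay over these genes. Open chromatin was mapped by ATAC-seq, which reads out where Tn5 transposase can cut, in WT cells and on ASH1L-/- cells, in which the gene of the methyltransferase ASH1L had been disrupted by CRISPR/Cas9. Each genotype was left unchallenged (no UV) or irradiated with UV-C (20 J per square metre) and collected 3 h later, with 2 biological replicates in each of the 4 groups. The ASH1L-/- cells came from isolated colonies, so that differences between genotypes cannot be told apart from differences between a clone and the parental line, and p-values below measure only the spread between these libraries. The question asked here was whether loss of ASH1L, or UV light, went with other accessibility at the genes of the remaining H3K4 and H3K36 methyltransferases.

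The KMT2 and SETD1 enzymes are the catalytic subunits of COMPASS complexes, which carry WDR5, RBBP5, ASH2L and DPY30 as common subunits and place H3K4 methylation at promoters (SETD1A, SETD1B, KMT2A, KMT2B) or enhancers (KMT2C, KMT2D). NSD1, NSD2 and NSD3 dimethylate H3K36, and SETD2 adds the trimethyl mark in transcribed gene bodies. ASH1L dimethylates H3K36 as well, which makes these genes the natural place to look for a change that accompanies its loss. Accessibility of a promoter or an enhancer is not a measure of transcription, and no RNA was measured in these samples.

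The lists held between 158198 and 220783 regions, of which 52 to 80 per list lay over the 10 genes. The mean pileup of reads over the genome, recovered from the values in the lists as a measure of depth, ranged from 1.39 to 5.87, with both extremes in unchallenged ASH1L-/- cells. Regions with a q-value below 0.05 made up 77.4% to 80.1% of the lists without UV and 85.7% to 94.2% of those after UV. Of 6 mesenchymal or osteoblastic markers, RUNX2, VIM, SPARC and COL1A1 had a promoter region in 8 of 8 lists, COL1A2 in 7 and TWIST1 in 2. Among markers of other lineages, no list had a region at the canonical start site of PTPRC, CD3E, ALB or CDH1, and 8 had one at EPCAM. At any annotated TSS (transcription start site), PTPRC and ALB had a region in 1 list each, CD3E in none and CDH1 in 8. The targeted gene, ASH1L, had a promoter region in all 8 lists, and the lists hold no measure of the deletion itself.

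The start sites of these genes lie in GC-rich sequence. Promoter windows of 300 bases around a TSS were available from RefSeq (GRCh38.p14) for 8 of the 10 genes, all but NSD3 and SETD1B. Their G+C content ranged from 65% in KMT2D and SETD1A to 88.7% in KMT2C. A region overlapped the window in 8 of 8 lists for KMT2B, KMT2D, SETD1A and SETD2, in 7 for KMT2A, in 2 for NSD1 and in none for KMT2C and NSD2. The pair without a region were the most GC-rich of the 8 windows, with 88.7% in KMT2C and 86.7% in NSD2.

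A few stretches of these promoters show the contrast. The sequences run 5′ to 3′ on the strand of the gene, end before the first annotated exon in the window, and have CG dinucleotides in capitals. KMT2C (chr7:152436147-152436253, minus strand, hg38) is from the window without a region in any list, KMT2A (chr11:118436242-118436455, plus strand) from one with a region in 7 lists and SETD2 (chr3:47164114-47164185, minus strand) from one with a region in 8.
KMT2C promoter: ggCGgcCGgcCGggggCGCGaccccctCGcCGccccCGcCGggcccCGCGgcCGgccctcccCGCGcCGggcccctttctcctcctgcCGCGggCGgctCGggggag
KMT2A promoter: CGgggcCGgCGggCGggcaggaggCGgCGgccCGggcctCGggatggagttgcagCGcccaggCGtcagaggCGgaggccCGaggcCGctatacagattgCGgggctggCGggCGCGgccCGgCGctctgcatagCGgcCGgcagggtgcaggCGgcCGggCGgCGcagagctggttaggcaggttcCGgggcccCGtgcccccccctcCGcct
SETD2 promoter: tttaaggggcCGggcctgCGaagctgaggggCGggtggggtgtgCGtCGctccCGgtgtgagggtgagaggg
G+C made up 89.7% of the KMT2C stretch, 79.4% of the KMT2A stretch and 70.8% of the SETD2 stretch.

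Few promoters of like composition had a region in every list. Over 15315 protein-coding genes with a RefSeq window, 66 had a window with at least 85% G+C, and a region in all 8 lists was found for 4.55% of them and in no list for 75.8%. Between 60% and 70% G+C, the class of KMT2D and SETD1A, 70.9% of 5306 windows had a region in all 8 lists. KMT2B stood apart from its class, since its window, at 83.3% G+C, had a region in 8 lists, as had 19.4% of the 531 windows between 80% and 85%. The absence of a region from the KMT2C and NSD2 windows was found in both genotypes and both UV states, and how far base composition limits detection there was not tested. The motif GGGCGG, the letters of a GC box, was found on either strand in 8 of 8 member windows and in 61.8% of all windows. CCAAT was found in 2 of 8 against 36.6%, CCGGAA in 2 of 8 against 23.7%, and GCATGCGC, TGANTCA and TGACGTCA in none against 4.37%, 5.50% and 2.76%.

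**Figure D1:**
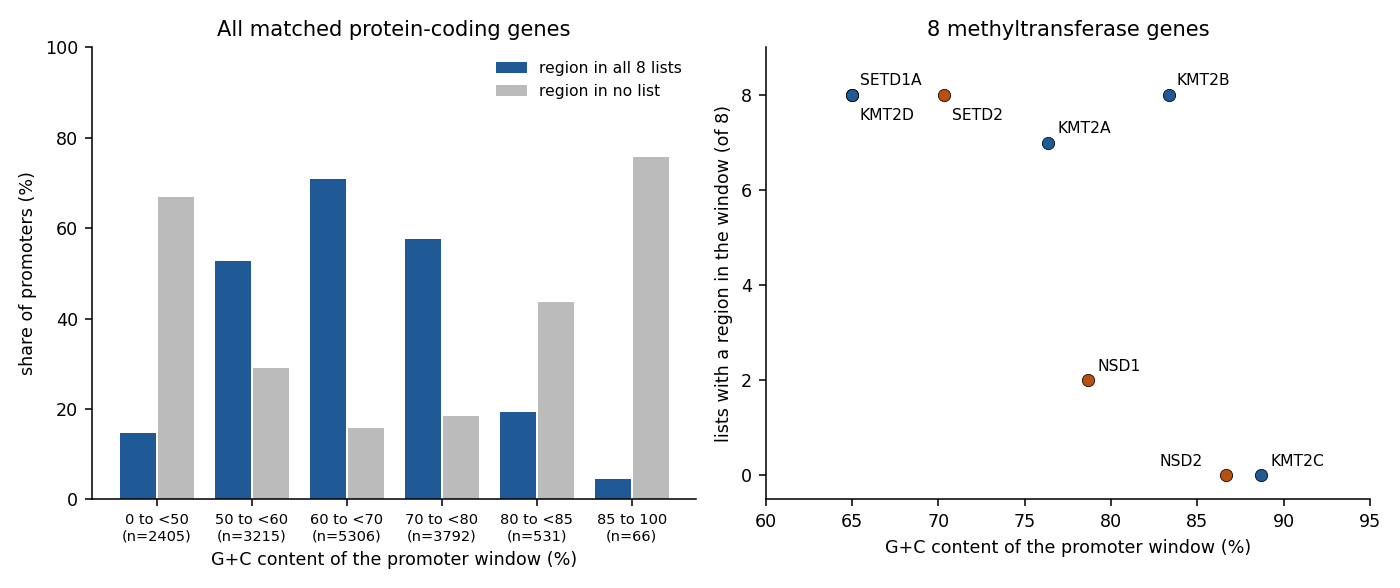
Left, share of protein-coding promoters (in %) with a region in all 8 lists or in no list, by G+C content of the RefSeq promoter window, with the number of promoters in each class. Right, number of lists with a region in the window against G+C content for 8 methyltransferase genes (H3K4 in blue, H3K36 in orange). KMT2C and NSD2, above 85% G+C, had none.

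To compare libraries of unequal depth, each region was given the percentile of its fold enrichment within its own list, where 100 is the strongest region of that list. A promoter was represented by its strongest region within 1 kb of any annotated TSS of the gene. 8 of the 10 genes had such a region in all 8 lists, while NSD1 had one in 7 lists and KMT2C in 5. The median percentile of these 8 genes, with all genes and libraries pooled, was 83.9. Over the 13487 protein-coding genes with a promoter region in all lists it was 89.2.

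Among the H3K4 methyltransferases, the KMT2B promoter, whose product acts at promoters of developmental genes, ranked at 87.1 and 87.6 in WT libraries without UV, 82.2 and 71.6 in irradiated WT, 89.1 and 86.4 in ASH1L-/- without UV, and 76.5 and 81.0 in irradiated ASH1L-/- libraries. In the same order, the KMT2A promoter, the gene rearranged in MLL leukaemias, ranked at 82.0 and 74.6, 68.8 and 53.9, 85.9 and 81.6, and 72.3 and 74.1. For both genes the 4 libraries without UV stood above all 4 UV libraries, and the genotypes overlapped. SETD1A, which encodes the catalytic subunit of a general H3K4 trimethylase, ranked at 94.5 and 79.4, 75.5 and 56.1, 89.3 and 84.9, and 76.6 and 88.1, so that one UV library of ASH1L-/- cells lay among the unchallenged ones. The promoter of its paralogue SETD1B was the weakest of the 8, with 63.9 and 69.7, 30.1 and 29.0, 78.2 and 55.6, and 15.9 and 53.8. The UV libraries were again lowest, although the replicates of the UV-treated ASH1L-/- cells lay far apart. This region also lay 115 bases from the start of the non-coding gene LINC01089.

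KMT2D, an enhancer H3K4 monomethylase, went the other way. Its strongest region ranked at 92.5 and 90.4, 95.6 and 98.1, 90.2 and 86.1, and 96.1 and 95.2, with all UV libraries above all others. That region did not lie at the canonical start but 10892 bases downstream of it, over coding exon 12 and within 1 kb of an annotated internal TSS. The region at the canonical KMT2D start ranked at 90.7 and 83.3, 71.5 and 61.3, 88.9 and 77.7, and 68.4 and 79.1, with a mean 15.1 percentile points lower after UV and groups that overlapped. KMT2C, the other enhancer monomethylase, had no region within 1 kb of its canonical start in any list. Its promoter values came from another annotated TSS and were 35.6 in 1 unchallenged WT library, 57.1 in 1 UV-treated WT library, 61.0 in 1 unchallenged ASH1L-/- library, and 47.0 and 56.6 in the UV-treated ASH1L-/- libraries.

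Among the H3K36 methyltransferases, the SETD2 promoter ranked highest, at 86.6 and 93.5, 88.3 and 84.3, 94.4 and 90.7, and 91.8 and 92.7 in the 4 groups. NSD2, the gene placed under the immunoglobulin enhancer in t(4;14) myeloma, ranked at 89.6 and 85, 83.7 and 85.9, 89.2 and 84.3, and 64.4 and 88.7. NSD3 ranked at 75.3 and 66.3, 70.9 and 60, 84.0 and 62.9, and 62.1 and 76.5. In all of these the groups overlapped for both factors. NSD1, the gene of Sotos syndrome, had the lowest values of the 4, at 49.9 and 46.7, 52.6 and 58.3, 59.1 in 1 of the unchallenged ASH1L-/- libraries, and 36.7 and 51.5. Its canonical start had a region in 5 lists, all 4 UV lists and 1 without UV.

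**Figure D2:**
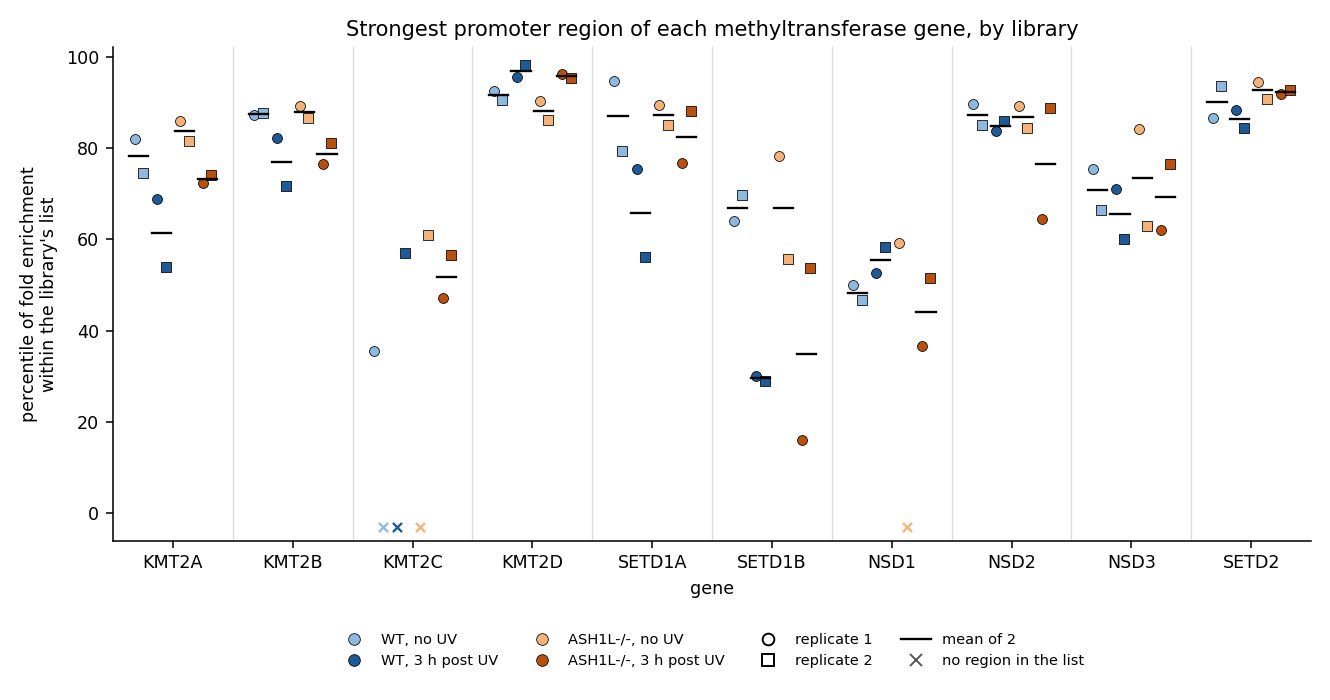
Percentile of fold enrichment (0 to 100, within each library's list) of the strongest promoter region of the 10 genes in the 8 libraries, with circles and squares for replicates 1 and 2 and bars for the mean of 2. Crosses mark lists without a promoter region. UV libraries lay below all others for KMT2A, KMT2B and SETD1B and above them for KMT2D. The KMT2D values are those of a region 10892 bases downstream of the canonical start.

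The gene models in hg38 (GENCODE release 44) spanned chr11:118436456-118526832 for KMT2A, chr19:35717973-35738880 for KMT2B, chr7:152134922-152436644 for KMT2C, chr12:49018975-49060794 for KMT2D, chr16:30957294-30984664 for SETD1A and chr12:121804009-121832656 for SETD1B. Those of the H3K36 genes spanned chr5:177131830-177300213 for NSD1, chr4:1871393-1982207 for NSD2, chr8:38269704-38382272 for NSD3 and chr3:47016428-47164113 for SETD2.

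No member promoter separated the genotypes. Of the 8 genes with a promoter region in all lists, 0 had the 4 ASH1L-/- libraries above the 4 WT libraries and 0 below, where 1.86% and 0.816% of all 13487 genes did. Such a separation corresponds to the smallest p that 4 against 4 libraries can give, 0.0286 (exact permutation test, two-sided, 70 assignments). The largest difference was in KMT2A, at 69.8 ± 11.9 in WT and 78.5 ± 6.37 in ASH1L-/- cells (SD, 4 libraries each, exact permutation p = 0.286), and the next in SETD1A, at 76.4 ± 15.8 and 84.7 ± 5.73 (p = 0.371, exact permutation test). The median difference of the 8 genes was 2.97 percentile points, beside 0.961 over all genes. The lowest Benjamini-Hochberg adjusted p over all genes was 0.994, so that no gene of the genome passed at this number of libraries.

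UV light went with lower promoter ranks in 3 of the 8 genes and a higher rank in 1, KMT2D. The higher rank belonged to a region 10892 bases downstream of the canonical KMT2D start. With the canonical TSS only, 3 genes were lower after UV and 0 higher. The background is large here, since 20.1% of all 13487 genes had all UV libraries below all unchallenged ones and 1.65% above. SETD1B fell from 66.9 ± 9.53 to 32.2 ± 15.8 (SD, n = 4 each), KMT2A from 81.0 ± 4.71 to 67.3 ± 9.20 and KMT2B from 87.6 ± 1.14 to 77.8 ± 4.83, all 3 at p = 0.0286 (exact permutation test). At its downstream region KMT2D rose from 89.8 ± 2.68 to 96.3 ± 1.26 (p = 0.0286, exact permutation test). At its canonical start the rank changed by -15.1 percentile points after UV, with groups that overlapped. These are ranks, and the fold enrichment of KMT2A was 5.49 to 6.92 without UV and 5.40 to 6.64 after it. That of KMT2B was 6.43 to 9.36 and 7.49 to 8.73, so that both overlapped, while SETD1B had 3.79 to 4.86 and 2.64 to 3.67. The median fold enrichment of a whole list was 2.57 to 3.71 without UV and 3.47 to 5.06 after it. All 4 calls were in H3K4 genes, of which 5 could be tested, and none was in the 3 testable H3K36 genes. Beside the 20.1% and 1.65% of all genes, these numbers are too small to tell the H3K4 genes from the H3K36 genes. None passed the adjustment over all genes, with an adjusted p of 0.132 for each (exact permutation test, Benjamini-Hochberg). The median UV difference was -8.05 percentile points over the 8 genes and -2.57 over all genes.

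For these 4 genes the UV difference has the same sign in both genotypes by the rule that selected them, so only its size is informative. SETD1B changed by -37.3 percentile points in WT and -32.1 in ASH1L-/- cells, KMT2A by -17.0 and -10.5, KMT2B by -10.5 and -9.05, and KMT2D by 5.35 and 7.52. A contrast of the UV differences between WT and ASH1L-/- cells separated the libraries for 0 of 8 genes, against 0.816% of all genes. The 4 genes separated by UV could not also separate in this contrast, so the count says nothing about them. SETD1A differed most between genotypes, at -21.2 in WT and -4.71 in ASH1L-/- cells, with p = 0.4 for the contrast (exact permutation test). Ranks within a list depend on what else the list holds, and more of the regions in UV lists passed a q-value of 0.05. When only regions below that q-value were ranked, KMT2B remained below and KMT2D above, whereas KMT2A (-12.4, p = 0.0857) and SETD1B (-34, p = 0.0571, both by exact permutation test) no longer separated although their differences stayed about as large.

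The 181 sites over the 10 genes comprised 112 in introns, 33 in exons, 19 upstream and 17 downstream. 25 of them (13.8%) were present in all 8 lists, beside 11% of all union sites, and 115 (63.5%) in only 1 list, beside 60.5%. The H3K4 genes had 14 of 66 sites in all lists, and the H3K36 genes 11 of 115. The deepest library, replicate 1 of the unchallenged ASH1L-/- cells, alone held 29 of the 115 sites seen once (25.2%). It also held 21.6% of all union sites seen once. Replicate 2 of the UV-treated WT cells held 17 of the 115 (14.8%), beside 5.72% of all union sites seen once. KMT2D had 5 of its 10 sites in all lists, while KMT2C, the longest of the 10 genes, had 1 of 11, in intron 1 and 40702 bases from the canonical start. 18 of the 25 constant sites lay within 1 kb of an annotated TSS, counting TSSs of neighbouring genes.

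**Figure D3:**
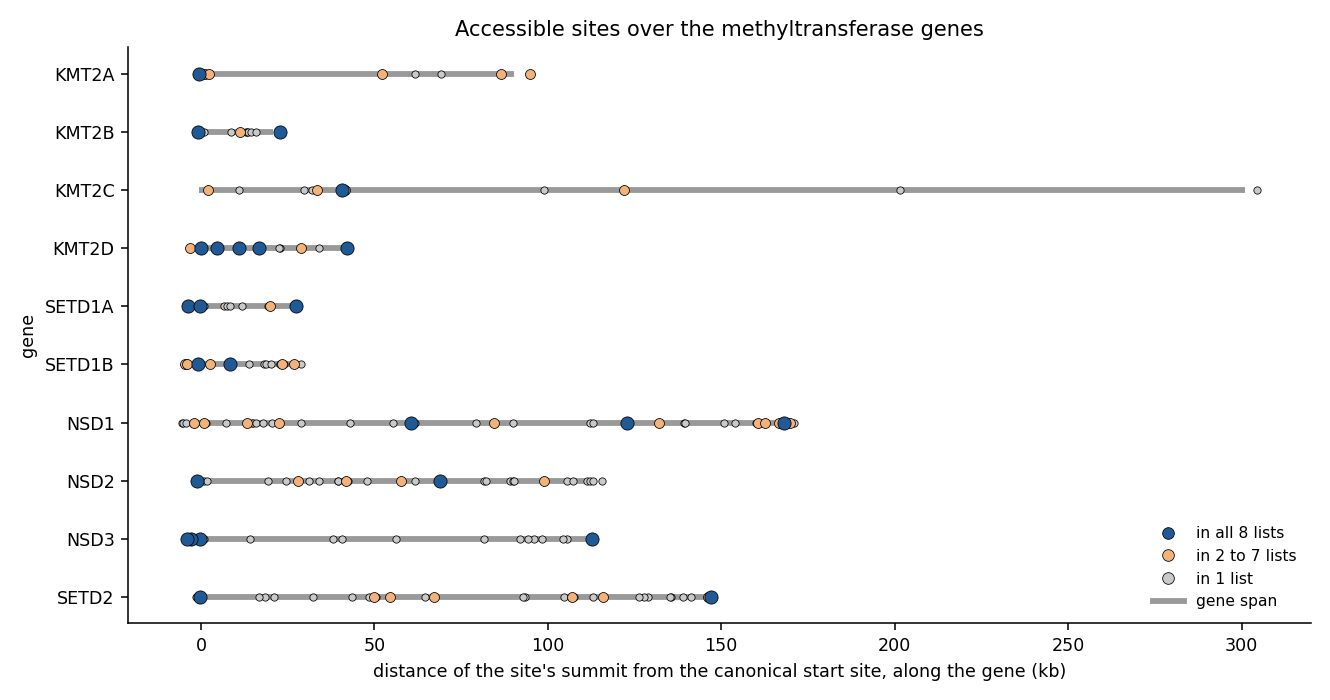
Sites over the 10 genes by distance of the summit from the canonical start site along the gene (kb), with the gene span as a grey bar. Colour and size show whether a site was in all 8 lists (25 sites), in 2 to 7 (41) or in 1 (115).

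Outside their own promoters, the most accessible member site lay in intron 3 of NSD1, 60635 bases from the canonical start (chr5:177194075-177194776). It ranked between 96.7 and 99.2 in the 8 lists, with a fold enrichment of 13.3 to 19.4, and overlapped between groups for both factors. The site at the 3′ end of NSD3 ranked between 92.8 and 99.1, but lay at the start of the neighbour PLPP5. Of the other genes, KMT2D had such a site at the start of PRKAG1 (89.9 to 96.3), KMT2B at the start of IGFLR1 (64.2 to 88.5) and SETD1A at the start of HSD3B7 (67.0 to 85.7). These 4 sites belong to the gene's surroundings by the 5 kb rule and are closest to the start of another gene. SETD2 had one in its last exon (70 to 98.0), SETD1B in intron 6 (73.8 to 93.8) and KMT2C in intron 1 (49.9 to 88.8). KMT2A and NSD2 had no constant site away from their own start sites.

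Several of the constant sites separated UV from no UV. Of the 25, 3 had all UV libraries above all others, beside 5.99% of 60323 constant sites of the genome, and 5 had them below, beside 12.3%. The 5 lower sites all lay at starts, namely the KMT2A, KMT2B and SETD1B promoters described above and the starts of IGFLR1 and PRKAG1. The IGFLR1 site fell from 80.1 ± 6.87 to 68.1 ± 3.23 and the PRKAG1 site from 95.1 ± 1.2 to 91.2 ± 1.57 (SD, 4 libraries each, exact permutation p = 0.0286). Over the genome, 17.6% of constant sites within 1 kb of a TSS and 10.1% of those farther away were lower after UV.

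The 3 higher sites lay within or behind genes. Behind NSD1, 1764 bases from the nearest TSS, that of RAB24, a site ranked at 11.9 and 22.7 in WT libraries without UV, 62.5 and 54.8 in irradiated WT, 1.98 and 30.8 in ASH1L-/- without UV and 52.4 and 54.5 in irradiated ASH1L-/- libraries. Its mean was 16.9 ± 12.6 without and 56.1 ± 4.44 after UV (SD, 4 libraries each, exact permutation p = 0.0286), the largest of the 25 differences in either direction. Without UV the site ranked low, and below a q-value of 0.05 it was not in all 8 lists. The same held with an equal number of regions per list. In the last exon of SETD2, exon 21, a coding site ranked at 83.3 and 70, 93.8 and 93.2, 89.5 and 90.2, and 98.0 and 97.1, with a mean of 83.3 ± 9.37 without and 95.5 ± 2.4 after UV (p = 0.0286, exact permutation test). The third was the KMT2D exon 12 site, whose fold enrichment was 6.84 to 10.6 in the unchallenged and 13.7 to 20.0 in the UV libraries. Among regions with a q-value below 0.05, 2 constant member sites were higher and 1 lower after UV, where 8.07% and 8.61% of all constant sites were. None of the sites passed the adjustment over all constant sites, with an adjusted p of 0.156 for each (exact permutation test, Benjamini-Hochberg).

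Windows of 100 bases on each side of the summits of 4 UV-related sites are shown on the plus strand of hg38, with letters of the 6 motifs in capitals. They are the KMT2D exon 12 site (chr12:49049802-49050002) and the NSD1 downstream site (chr5:177301778-177301978), both higher after UV, the KMT2C intron 1 site seen only after UV (chr7:152433746-152433946) and the SETD1B promoter site, lower after UV (chr12:121802961-121803161).
KMT2D exon 12 site: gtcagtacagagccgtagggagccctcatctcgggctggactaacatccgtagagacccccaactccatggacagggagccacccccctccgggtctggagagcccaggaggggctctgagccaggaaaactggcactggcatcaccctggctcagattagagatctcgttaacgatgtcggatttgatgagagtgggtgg
NSD1 downstream site: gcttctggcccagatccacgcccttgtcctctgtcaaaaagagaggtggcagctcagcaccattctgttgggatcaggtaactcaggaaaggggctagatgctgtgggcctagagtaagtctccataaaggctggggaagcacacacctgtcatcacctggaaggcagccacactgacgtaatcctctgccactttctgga
KMT2C intron 1 site: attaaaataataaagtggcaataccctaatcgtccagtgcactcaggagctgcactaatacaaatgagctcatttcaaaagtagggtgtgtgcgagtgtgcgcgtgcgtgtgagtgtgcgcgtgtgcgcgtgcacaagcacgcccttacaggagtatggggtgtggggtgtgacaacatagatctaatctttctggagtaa
SETD1B promoter site: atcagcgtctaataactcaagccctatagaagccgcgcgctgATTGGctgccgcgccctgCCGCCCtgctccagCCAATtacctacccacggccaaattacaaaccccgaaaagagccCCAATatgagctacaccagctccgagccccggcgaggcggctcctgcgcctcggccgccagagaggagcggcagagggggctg
The first 3 windows held none of the 6 motifs. The SETD1B window held CCAAT, read on either strand, 3 times and GGGCGG once.

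TGANTCA, the letters bound by AP-1 factors, was found in 50.6% of the 3616 constant sites of the genome that were higher after UV, beside 25.2% of all constant sites. The 3 UV-higher member sites held it in 0 windows. Among the 25 constant member sites it was present in 2, in KMT2C intron 1 and in NSD2 intron 9. GGGCGG was present in 7 of the 25 windows (28%), beside 15.6% of all constant sites, CCAAT in 2 (23.8% of all) and CCGGAA in 1 (6.29% of all). All 5 UV-lower member windows held GGGCGG, beside 21.5% of the 7402 UV-lower sites of the genome. All 5 lay at gene starts, whereas 41.9% of the 7402 were within 1 kb of a TSS. GGGCGG was in 35.4% of constant sites within 1 kb of a TSS and 7.40% of those farther away, TGANTCA in 10.4% and 31.3%. As 18 of the 25 member sites were near a TSS, the shares of all constant sites are not a matched background.

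One constant site separated the genotypes. It lay in intron 9 of the canonical NSD2 transcript (chr4:1939920-1940715), over an exon of another transcript and 498 bases from an annotated internal TSS. In WT cells it ranked at 89.6 and 85 without UV and at 71.9 and 85.9 after UV, and in ASH1L-/- cells at 71.8 and 53.1 without UV and at 13.7 and 32.6 after UV. The WT libraries all stood above the ASH1L-/- libraries, although the lowest WT and the highest ASH1L-/- value lay close together. The mean ranks were 83.1 ± 7.72 and 42.8 ± 25.1 (SD, 4 libraries each, exact permutation p = 0.0286), and the adjusted p over all constant sites was 0.701. That was 1 site lower and 0 higher in ASH1L-/- cells out of 25, where 1.51% and 2.57% of all constant sites were. Fold enrichment at the site was 5.95 to 13.0 in WT and 2.61 to 3.77 in ASH1L-/- cells. With −log10 p-values ranked the libraries no longer separated (-38.8, exact permutation p = 0.0571), and below a q-value of 0.05 the site was not in all 8 lists. This internal site gave NSD2 its promoter value in 3 of the 4 WT libraries, and the upstream start of NSD2 ranked at 79.3 ± 7.27 in WT and 81.7 ± 11.7 in ASH1L-/- cells (p = 0.743, exact permutation test).

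**Figure D4:**
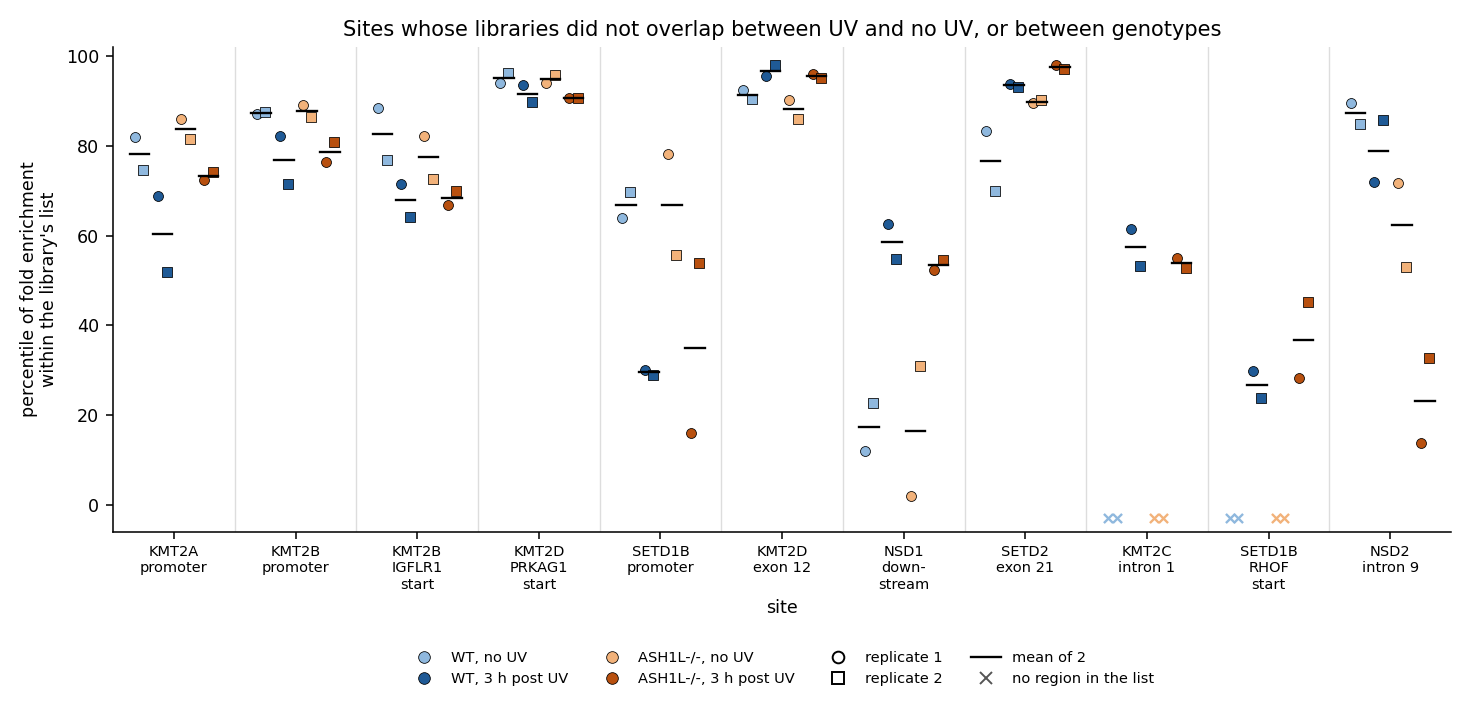
Percentile of fold enrichment (0 to 100, within each library's list) at the 11 member sites that separated UV from no UV or the genotypes, with circles and squares for replicates 1 and 2, bars for the mean of 2, and crosses for lists without a region. The UV-lower sites stand left, then the UV-higher sites, the 2 sites seen only after UV and the NSD2 site.

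No member site was in all 4 ASH1L-/- lists and in no WT list, or the reverse, where 0.186% and 0.0768% of all union sites were. With 1 list of the other genotype allowed, the count was still 0 in both directions, beside 0.48% and 0.276%. By UV, 2 sites were in all 4 UV lists and in no unchallenged list (0.686% of all union sites), and 0 were the reverse (0.0967%). One lay in intron 1 of KMT2C, 2157 bases inside the gene whose start itself had no region, and ranked at 61.5 and 53.2 in WT and 55.1 and 52.8 in ASH1L-/- cells. The other lay upstream of SETD1B, 689 bases from the start of RHOF, and ranked at 29.7 and 23.9 in WT and 28.2 and 45.2 in ASH1L-/- cells.

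With 1 unchallenged list allowed, a threshold chosen after the sites had been seen, 6 member sites were in all 4 UV lists (1.63% of all union sites) and 0 in all 4 unchallenged lists with at most 1 UV list (0.246%). The 4 further sites lay 2237 bases inside KMT2A, behind KMT2A at the start of TMEM25, upstream of SETD1B at 1154 bases from the start of RHOF, and 984 bases inside NSD1. Of the 6 sites, 5 belonged to H3K4 genes. Their percentiles did not exceed 61.5 in any list. The depth of 3 of the 4 unchallenged libraries, 1.39 to 2.10, was below that of every UV library, 2.45 to 2.81, and the part of depth in these counts was not tested.

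The number of regions over a gene did not separate the groups. It ranged over the libraries from 2 to 9 in KMT2A, 2 to 7 in KMT2B, 2 to 9 in KMT2C, 6 to 9 in KMT2D, 3 to 6 in SETD1A, 3 to 9 in SETD1B, 8 to 14 in NSD1, 4 to 12 in NSD2, 4 to 9 in NSD3 and 6 to 18 in SETD2. 0 of 10 genes had more or fewer regions in every ASH1L-/- library than in every WT library, where 1.51% and 1.49% of 19252 genes did, and 0 had more or fewer in every UV library, where 1.36% and 1.11% did. Per 10 kb of span, the mean number ran from 0.140 in KMT2C to 1.68 in SETD1B, beside a median of 0.958 over protein-coding genes.

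KMT2A came closest to a UV difference in number. The WT libraries held 4 and 5 regions without UV and 9 and 6 with it, the ASH1L-/- libraries 3 and 2 without and 5 and 8 with it, so that only the highest unchallenged and the lowest UV library tied. The mean numbers were 3.5 ± 1.29 and 7 ± 1.83 (SD, 4 libraries each, exact permutation p = 0.0571). Among regions with a q-value below 0.05, and relative to all regions within 1 Mb, the UV libraries of KMT2A stood above all others (p = 0.0286, exact permutation test). They overlapped on the gene span alone, where the difference was 2.25 regions (p = 0.143, exact permutation test), and with an equal number of regions per list, where it was 3 (p = 0.0857, exact permutation test). The SETD2 count of 18 came from the deepest library, where the other 7 lists held 6 to 10.

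Beside the 10 genes, the targeted gene ASH1L had the lowest genotype p in number. Over its span lay 15, 15, 12 and 9 regions in WT cells and 4, 3, 4 and 9 in ASH1L-/- cells, with means of 12.8 ± 2.87 and 5 ± 2.71 (SD, 4 libraries each, exact permutation p = 0.0571). The ASH1L promoter ranked at 88.5 ± 5.61 in WT and 92.9 ± 3.74 in ASH1L-/- cells (p = 0.257, exact permutation test).

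**Figure D5:**
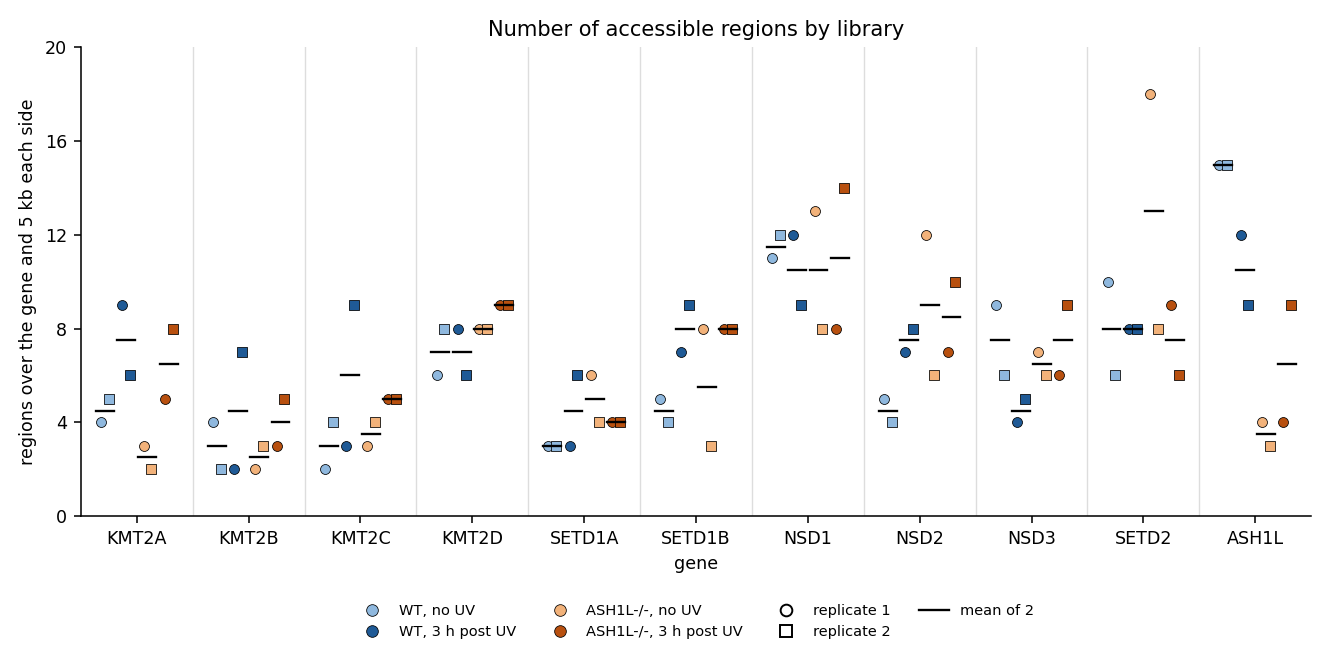
Number of regions over each gene and 5 kb on each side in the 8 libraries, with circles and squares for replicates 1 and 2 and bars for the mean of 2. ASH1L is shown beside the 10 genes; its 4 WT libraries hold 9 to 15 regions and the ASH1L-/- libraries 3 to 9.

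Of 33 further genes of the pathway, namely COMPASS subunits, readers and erasers of H3K4 and H3K36 methylation and other methyltransferases, 31 had a promoter region in all 8 lists. By genotype, 1 separated, MORF4L1, which encodes MRG15, a reader of H3K36 methylation. It ranked at 87.5 ± 6.43 in WT and 93.5 ± 1.38 in ASH1L-/- cells (SD, 4 libraries each, exact permutation p = 0.0286, Benjamini-Hochberg adjusted p = 0.994). The highest WT value, 91.6, and the lowest ASH1L-/- value, 91.9, lay close together. Over all genes, 1.86% were higher and 0.816% lower in ASH1L-/- cells by this rule. By UV, 5 of the 31 were lower and 0 higher. They were PAGR1, a subunit of the KMT2C and KMT2D complexes (89.5 to 78.7), CXXC1, the CpG-binding subunit of the SETD1 complexes (96.1 to 91.1), GLYR1, a nucleosome reader (87.9 to 75.8), the H3K4 demethylase KDM5C (87.3 to 75.2), and ASH1L (94.3 to 87.1), each at p = 0.0286 (exact permutation test). None of these passed the adjustment over all genes, and 5 of 31 is near the 20.1% of all promoters given above. The median UV difference of the 31 genes was -3.19 percentile points and the median genotype difference 1.01.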

How the data were processed

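ATAC-seq peaks of 8 U2OS libraries were analysed, 2 in each of 4 groups. Per the study's methods, the authors trimmed reads with cutadapt 1.9.1, aligned them with Bowtie2 2.4.5 to hg38 without chromosome Y, and used SAMtools 1.7, bedtools 2.29.2 and Picard. They called peaks with MACS2 2.2.7.1, and each library has its own deposited list. The deposited peak lists give a fold enrichment (ratio to the local background), −log10 p-values, −log10 q-values, a display score and a summit offset. Between 234 and 397 peak numbers per list had no record.

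Records of 1 interval were reduced to 1 region with their highest fold enrichment and its summit. Its −log10 p-value and −log10 q-value were the highest of any of these records. Each region was ranked by percentile within its list. Regions overlapping by at least 1 bp were merged into union sites. Genes came from GENCODE release 44, and members were assigned within 5 kb of the gene span, promoters within 1 kb of a TSS. Groups of 4 libraries were compared by exact two-sided permutation tests (70 assignments), with Benjamini-Hochberg adjustment over all genes or sites. A gene or site was counted when the groups did not overlap, and each such member was named. Pairs of libraries within a genotype were not tested. Ranks of sites in all lists, and the allowance of 1 list, were added after the data had been seen. The members and lists were chosen with earlier results of these data known. Scripts used Python 3.11.15, numpy 2.4.6, pandas 2.3.3, scipy 1.17.1 and matplotlib 3.10.9 and were tested on simulated data. Depth is the mean pileup recovered from the deposited values, and read totals were not used here. One marker of another lineage is not reported here.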

Additional observations from a re-analysis of the deposited data

How the results depend on the processing

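Counts below are of members whose groups did not overlap. For promoter rank by UV the count of 4 became 2 with −log10 p-values ranked, 2 with a q-value below 0.05 and 2 with 0.01 or below. KMT2A and SETD1B were lost in all 3 of these, with differences of -12.4 and -34 below a q-value of 0.05, -10.9 and -30.8 at 0.01 or below, and -7.81 and -22.4 with −log10 p-values, beside -13.7 and -34.7. KMT2A was also lost when ranked among promoters (-10.6, p = 0.0857) and SETD1B with a 2 kb window (-17.9, p = 0.143, exact permutation tests). KMT2D reversed to -15.1 with the canonical TSS only (p = 0.0571, exact permutation test). Over all genes, UV-lower and UV-higher promoters were 20.1% and 1.65%, and 7.03% and 6.48% when ranked among promoters. For region number by UV the count of 0 became 1 with the replicate block, 1 at a q-value below 0.05, 1 at 0.01 or below, 1 with an equal number of regions and 2 relative to regions within 1 Mb. In that order, 2.08%, 2.47%, 4.25%, 2.06% and 3.43% of all genes were higher after UV by the same rule. Sites seen only with UV numbered 2, but 1 on the gene span alone, 1 with 50% coverage of the site and 6 with 1 list of the other side allowed. The shares of all union sites were 0.686%, 0.929% and 1.63% in that order. Site rank by UV gave 8, but 3 with −log10 p-values, 3 below a q-value of 0.05 and 3 at 0.01 or below. Of all constant sites, 10.3%, 8.61% and 6.64% were UV-lower under these settings, and 6.79%, 8.07% and 10.6% UV-higher. Site rank by genotype gave 1, but 0 at both q-values and 2 with an equal number of regions, and with −log10 p-values ranked its 1 site was higher in ASH1L-/- cells, in place of the NSD2 site. The 2 sites were lower in ASH1L-/- cells, as were 2.52% of all constant sites under that setting. With −log10 p-values, 3.94% of all constant sites were higher.

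Leaving out 1 library at a time gave 0 to 1 for promoter rank by genotype (SETD2 without replicate 2 of unchallenged WT), 4 to 5 by UV (SETD1A added without replicate 2 of UV-treated ASH1L-/-) and 0 to 1 for UV by genotype (1 without replicate 2 of unchallenged ASH1L-/-, when 9 genes could be tested). With these omissions, 4.10% of all genes were higher in ASH1L-/- cells, and 27.1% were lower after UV. For UV by genotype, 0.780% separated in the direction of the 1 gene. Region number gave 0 to 1 by genotype (SETD1A without replicate 2 of UV-treated WT) and 0 to 2 by UV (2 without replicate 1 of unchallenged ASH1L-/-, and 1 without replicate 2 of unchallenged WT, replicate 1 of UV-treated WT or replicate 1 of UV-treated ASH1L-/-). With the genotype omission, 2.38% of all genes had more regions in ASH1L-/- cells. With the UV omissions, in the order named, 2.69%, 2.58%, 2.84% and 2.41% had more after UV. Separating sites gave 2 to 6 by UV (6 without replicate 1, of which 4 were seen only with UV and 2 only without it, and 4 without replicate 2 of unchallenged WT) and 0 by genotype. Site rank gave 1 to 5 by genotype (5 without replicate 2 of unchallenged WT, 4 of them higher and 1 lower in ASH1L-/- cells, and 2 without its replicate 1 or without replicate 1 of unchallenged ASH1L-/-) and 8 to 12 by UV (12 without replicate 2 of UV-treated ASH1L-/-). The causes of these changes were not tested.

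Same-numbered replicates correlated at -0.0672 to 0.115, so the numbers were not taken to pair libraries. With the replicate block, whose smallest exact permutation p is 0.0556, the counts were 0 and 4 for promoter rank by genotype and UV, 0 for UV by genotype, 0 and 1 for region number, and 1 and 8 for site rank. With 4 libraries a side and no adjusted p below 0.132, a single difference is not resolved from the number of features tested.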
